A study of Mus musculus with 6 samples.

Results

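The cyclic AMP phosphodiesterases examined here were the 10 genes of the PDE3, PDE4, PDE7 and PDE8 families, taken by gene name from the 53084 rows of the count table: *Pde3a*, *Pde3b*, *Pde4a*, *Pde4b*, *Pde4c*, *Pde4d*, *Pde7a*, *Pde7b*, *Pde8a* and *Pde8b*. All 10 had enough counts to be tested. They were measured by RNA-seq in the muscle of 3 Tarsl2+/+ mice (labelled WT, mice 583, 584 and 595) and 3 Tarsl2-/- mice (labelled Tarsl2 KO, mice 588, 589 and 591). All were C57BL/6 males, 6 weeks old, on standard chow, with 1 library per mouse. The title of mouse 589 begins with KOT1 and those of mice 588 and 591 with KO1, a difference that is not explained. The Tarsl2-/- mice carried a germline CRISPR/Cas9 deletion of exon 3 of *Tarsl2*, which encodes a threonyl-tRNA synthetase-like protein, so that every tissue lacked the exon, and the muscle taken is not named. The families were chosen by gene name with the level and the genotype difference of these genes already known, and so count as selected on those values. The values below are therefore a description, and the p-values of the 10 genes place each one among all genes tested without being independent evidence for it.

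Cyclic AMP is made by adenylyl cyclases after a hormone or transmitter has activated a receptor coupled to the stimulatory G protein, and it acts mainly through protein kinase A. Phosphodiesterases hydrolyse it to AMP and so set how long and how far the signal lasts. PDE4, PDE7 and PDE8 enzymes are selective for cAMP, whereas PDE3 enzymes also bind cGMP, which slows their hydrolysis of cAMP. In skeletal muscle cAMP is the second messenger of beta-adrenergic stimulation, which promotes glycogen breakdown and muscle growth.

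The 10 genes differ widely in structure. *Pde4d* lies on chromosome 13 (GRCm38, plus strand) and spans 1504 kb between 108449948 and 109953461, and GENCODE vM21 annotates 12 protein-coding transcripts for it with 12 start positions spread over 1281 kb. *Pde4b* spans 520 kb of chromosome 4, from 102087543 to 102607259, with 9 protein-coding transcripts from 9 starts. At the other end, *Pde3a*, *Pde3b* and *Pde8a* each have 1 protein-coding transcript, and *Pde4c* spans 27.5 kb. The long and short PDE4 enzymes that arise from these starts differ in their regulatory regions and share the catalytic domain. The counts are per gene and do not separate them.

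*Pde8a*, from 81213596 to 81334533, and *Pde3b*, from 114415281 to 114539251, are on chromosome 7 with *Tarsl2* itself, 15.5 and 48.7 Mb away from it. *Pde3a*, *Pde7a* and *Pde8b* each share exonic bases with an antisense gene. Those antisense genes had 18, 0 and 19 counts over the 6 libraries together. *Pde4d* and the other 6 share no exonic base with another annotated gene.

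RefSeq promoter windows on GRCm38.p6 were available for 7 of the 10 genes, 16 windows in all. *Pde3a*, *Pde3b* and *Pde7a* were not among them. Each window was read over the 250 bases before an annotated start. The cAMP response element, bound by CREB, was searched on both strands as its full palindrome TGACGTCA and as its half-site TGACG, which lies within the palindrome. The palindrome was in 0 of the 16 windows, against 1.55% of all 32851 windows. With 16 windows, some of those of *Pde8b* overlapping each other, 0 cannot be told apart from that share. The half-site was in 3 of the 16, 1 each of *Pde4a*, *Pde4b* and *Pde8a*, against 17.8% of all windows. A match of this kind is a description of letters and not a binding site. The sequences below are shown because *Pde4d* was the member past the threshold between genotypes, whereas *Pde8a* and *Pde4a* are members that hold the half-site and were not past it. The first is the *Pde4d* window at chr13:108653927-108654176, plus strand, the last 72 bases of which are also an exon of non-coding *Pde4d* transcripts. The second is the *Pde8a* window at chr7:81213015-81213264, plus strand. The third is the second *Pde4a* window at chr9:21183851-21184100, plus strand. All are written 5′ to 3′ with the half-site, on either strand, in capitals.
Pde4d: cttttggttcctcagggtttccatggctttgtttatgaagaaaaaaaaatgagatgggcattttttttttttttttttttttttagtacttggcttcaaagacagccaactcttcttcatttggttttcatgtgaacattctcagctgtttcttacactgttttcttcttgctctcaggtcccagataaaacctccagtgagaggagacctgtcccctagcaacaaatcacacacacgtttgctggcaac
Pde8a: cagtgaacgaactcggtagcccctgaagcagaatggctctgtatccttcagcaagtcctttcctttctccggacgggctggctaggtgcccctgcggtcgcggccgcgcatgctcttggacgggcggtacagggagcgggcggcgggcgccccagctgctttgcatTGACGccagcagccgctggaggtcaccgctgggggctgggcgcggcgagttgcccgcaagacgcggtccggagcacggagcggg
Pde4a: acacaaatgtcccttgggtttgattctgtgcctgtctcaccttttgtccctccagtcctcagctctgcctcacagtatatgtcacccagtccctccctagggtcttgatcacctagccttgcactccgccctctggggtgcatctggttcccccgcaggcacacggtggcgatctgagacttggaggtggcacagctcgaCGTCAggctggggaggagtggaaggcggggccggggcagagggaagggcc
The half-site begins 84 bases before the start in *Pde8a* and 50 bases before it in *Pde4a*, where it reads CGTCA on the plus strand. The *Pde4d* window is poor in G and C, with 38.8% against a median of 52.4% over all windows and 68.8% in the *Pde8a* window. It covers 1 of the many starts of *Pde4d*.

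The libraries held between 16176591 and 20123767 counts, and 3 counts corresponded to between 0.149 and 0.185 CPM, the counts scaled to a common library size. *Tarsl2* had 456, 605 and 464 counts in Tarsl2+/+ mice 583, 584 and 595, and 40, 30 and 37 in the Tarsl2-/- mice 588, 589 and 591, or -3.81 on the log2 scale with a standard error of 0.16 (adjusted p = 6.46e-07 by the quasi-likelihood test of edgeR). The genotypes did not overlap, and the exact two-sided permutation test gave p = 0.1, the smallest that 3 mice against 3 allow. The sample records mention a retinal dissection, but the 5 retinal markers had at most 7 counts in any library and *Crx* had none, whereas all 6 muscle fibre markers were tested and reached 798123 counts. Of the 7 leukocyte markers, 6 were tested and all of these were lower in Tarsl2-/- muscle. Of them 2 passed the threshold by edgeR, against 2.27% of all tested genes in either direction. The summed level of the list was between 36.7 and 40.5 CPM per kb in Tarsl2+/+ and between 23.4 and 29.2 in Tarsl2-/- mice.

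For the order of the members by level, counts were scaled by TMM, which corrects for library composition, and divided by the length of the exons of the gene, giving CPM per kb. In Tarsl2+/+ muscle *Pde4b* had the highest mean level, 5.31 ± 1.73 CPM per kb (SD, n = 3), followed by *Pde8a* with 4.31 ± 0.290 and *Pde7a* with 2.90 ± 0.245. *Pde4b* and *Pde8a* overlapped, and *Pde4b* was above *Pde8a* in 2 of 3 mice. *Pde8a* was above *Pde7a*, and *Pde7a* above *Pde4a*, in every Tarsl2+/+ mouse without overlap. A group of 3 genes came next and overlapped with each other, *Pde4a* with 1.73 ± 0.396, *Pde3b* with 1.56 ± 0.488 and *Pde4d* with 1.52 ± 0.138 CPM per kb.

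*Pde7b* had 1.08 ± 0.0920 CPM per kb in Tarsl2+/+ muscle, below *Pde4d* in 3 of 3 mice, and *Pde3a* had 0.452 ± 0.0418. *Pde4c* and *Pde8b* were lowest, with 0.224 ± 0.0256 and 0.223 ± 0.0530, and could not be ordered. The level of the highest member thus exceeded that of the lowest by more than the spread between mice, while 4 of the 9 neighbouring pairs overlapped.

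**Figure D1:**
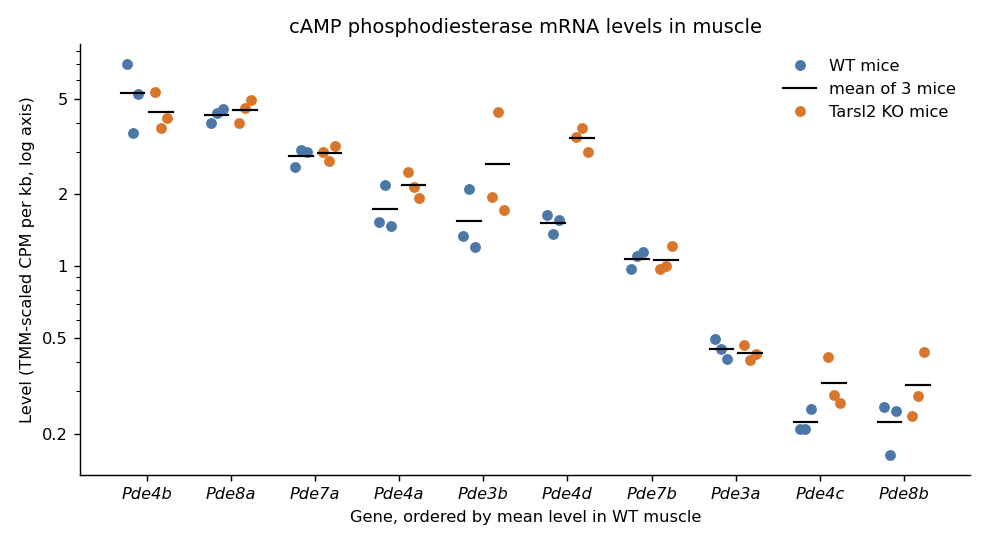
Level of each of the 10 phosphodiesterase genes in each mouse, in TMM-scaled CPM per kb of exon on a log axis, with genes ordered by their mean in Tarsl2+/+ (WT) muscle. Points are mice and bars are means of 3 mice. *Pde4d* lies between 1.37 and 1.63 in the WT mice and between 3.02 and 3.79 in the Tarsl2-/- (KO) mice, while *Pde3b* has 1 KO mouse at 4.42.

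In Tarsl2-/- muscle the order differed in its upper part. *Pde8a* had the highest mean, 4.52 ± 0.488 CPM per kb (SD, n = 3), and overlapped with *Pde4b* at 4.44 ± 0.807. *Pde4d* had moved from the sixth place to the third, at 3.43 ± 0.389 CPM per kb, and overlapped with *Pde7a* at 2.98 ± 0.205. *Pde4b* was above *Pde4d* in 3 of 3 Tarsl2-/- mice, with the lowest *Pde4b* value at 3.81 and the highest *Pde4d* value at 3.79. The lower places of *Pde7b*, *Pde3a*, *Pde4c* and *Pde8b* were the same in both genotypes. The order depended on the length used. Over the longest annotated transcript in place of all exons, 5 of the 10 genes changed place in the mean over all 6 mice, with *Pde4d* second at 7.07 CPM per kb behind *Pde4b* at 11.95. Without division by length, *Pde4d* at 18.3 CPM in Tarsl2+/+ mice was below only *Pde4b* at 56.0 and *Pde7a* at 22.4. In Tarsl2-/- mice, at 41.2 CPM, it was below only *Pde4b* at 46.9, so the shift in place was smaller.

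Within the PDE4 family, whose members are inhibited by rolipram and are activated in their long forms by protein kinase A, *Pde4d* was past the threshold. PDE4D is known to bind beta-arrestins and to act near beta-adrenergic receptors. *Pde4d* had 336, 310 and 359 counts in Tarsl2+/+ mice 583, 584 and 595, and 750, 731 and 747 in the Tarsl2-/- mice 588, 589 and 591. All 3 Tarsl2-/- mice lay above all 3 Tarsl2+/+ mice. The mean rose from 18.3 ± 1.65 to 41.2 ± 4.67 CPM (SD, n = 3 each), 2.25-fold, or 1.17 on the log2 scale with a standard error of 0.11 (adjusted p = 0.000593 by edgeR). By p-value *Pde4d* stood at place 9 of the 15075 genes tested.

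The difference in *Pde4d* was of similar size without any single mouse. With each left out in turn, its log2 fold change was between 1.09 and 1.25, and it passed the threshold in 6 of 6 fits by edgeR, with adjusted p between 0.00157 and 0.00602. Beside it, the 6 muscle fibre markers summed to between 59243 and 62519 CPM per kb in Tarsl2+/+ mice. In Tarsl2-/- mice they summed to between 63889 and 68922, higher without overlap. Of these 6 markers, 4 were positive, 1 was past the threshold by edgeR, higher, and in 1 the genotypes did not overlap. For the marker counts here, 7606 of all 15075 tested genes were positive and 2.27% passed the threshold in either direction. In 24.6% of all tested genes the genotypes did not overlap. The summed level of the 7 slow fibre markers overlapped, from 386 to 709 and from 544 to 850. Of these, 7 of 7 were positive and 0 were past the threshold by edgeR. Of the 7 fast fibre markers 2 passed the threshold, both higher, while their summed level overlapped, from 44784 to 49976 and from 41733 to 50292. Beside the leukocyte list, 3 more marker lists had lower summed levels in Tarsl2-/- muscle without overlap. The 6 erythrocyte markers had between 6188 and 13469 CPM per kb in Tarsl2+/+ and between 5417 and 5876 in Tarsl2-/- mice, with 0 of 6 positive and 0 past the threshold by edgeR. The 5 endothelial markers had between 20.7 and 24.6 and between 16.1 and 20.3, with 0 of 5 positive and 1 past the threshold. The 5 fibroblast markers had between 991 and 1174 and between 857 and 978, with 0 of 5 positive and 0 past the threshold by edgeR. The summed levels of the smooth muscle, Schwann cell and cardiomyocyte markers overlapped, and the cardiomyocyte marker *Nppa* had no counts. The part of fibre content and of these other cell types in the *Pde4d* difference was not tested. In such bulk tissue fewer cells of a type and less RNA per cell cannot be told apart.

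*Pde4b*, whose product is prominent in leukocytes as well as in other tissues, was not past the threshold. It had 1276, 718 and 1058 counts in Tarsl2+/+ mice 583, 584 and 595 and 1014, 645 and 905 in the Tarsl2-/- mice 588, 589 and 591. The genotypes overlapped and the spread among Tarsl2+/+ mice was wide, from 3.61 to 7.06 CPM per kb. Its log2 fold change was -0.26 (standard error 0.20, adjusted p = 0.527 by edgeR), and it was -0.0023 without Tarsl2+/+ mouse 583, the highest, and -0.47 without mouse 584, the lowest of that genotype. The leukocyte markers were lower in Tarsl2-/- muscle, as given above, and their part in the *Pde4b* values was not tested.

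*Pde4a* had between 201 and 316 counts in Tarsl2+/+ and between 265 and 340 in Tarsl2-/- mice. Its log2 fold change was 0.33 (standard error 0.16, adjusted p = 0.268 by edgeR), with 1 Tarsl2+/+ mouse, 584, inside the range of the Tarsl2-/- mice. Without that mouse it was 0.54 (adjusted p = 0.0517 by edgeR). *Pde4c* was scarce, with 20 to 27 counts in Tarsl2+/+ and 26 to 42 in Tarsl2-/- mice. After scaling its genotypes did not overlap, but the difference, 0.54 on the log2 scale with a standard error of 0.28, did not pass the threshold (adjusted p = 0.323 by edgeR), and it was 0.32 without Tarsl2-/- mouse 588.

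The makeup of the PDE4 family is given as a description, without a test. *Pde4d* made up 15.7%, 18.6% and 18.3% of the summed PDE4 level per kb in the Tarsl2+/+ mice 583, 584 and 595, and 29.7%, 37.8% and 32.2% in the Tarsl2-/- mice 588, 589 and 591. These shares did not overlap. The share of *Pde4b* was 59.3 ± 9.54% in Tarsl2+/+ and 42.6 ± 4.15% in Tarsl2-/- mice (SD, n = 3 each), and that of *Pde4a* 20.6 ± 8.01% and 21.1 ± 0.404%. The ratio of *Pde4d* to *Pde4b* per kb was between 0.232 and 0.380 in Tarsl2+/+ and between 0.651 and 0.997 in Tarsl2-/- mice. The summed PDE4 level itself overlapped, at 8.79 ± 1.54 and 10.4 ± 1.2 CPM per kb. Counted without length, *Pde4d* held 20.9 ± 2.27% of PDE4 counts in Tarsl2+/+ and 38.8 ± 4.58% in Tarsl2-/- mice.

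**Figure D2:**
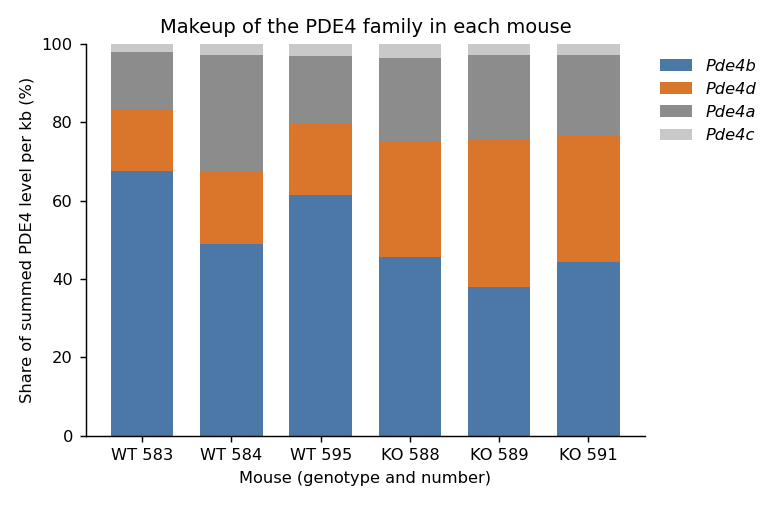
Share of each PDE4 gene in the summed PDE4 level per kb of exon, in percent, with 1 stacked bar per mouse. The *Pde4d* segment covers 15.7% to 18.6% in the 3 WT mice and 29.7% to 37.8% in the 3 KO mice.

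The PDE3 enzymes are the phosphodiesterases through which insulin lowers cAMP in adipocytes (PDE3B) and which act in heart, vessels and platelets (PDE3A). *Pde3b* had 210, 363 and 210 counts in Tarsl2+/+ mice 583, 584 and 595 and 318, 646 and 324 in the Tarsl2-/- mice 588, 589 and 591. Mouse 589 stood apart from the other Tarsl2-/- mice, which lay inside the Tarsl2+/+ range in CPM per kb. The difference of 0.78 on the log2 scale, with a standard error of 0.32, did not pass the threshold (adjusted p = 0.206 by edgeR). Without mouse 589 it was 0.24 (adjusted p = 0.638 by edgeR).

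Adipocyte markers were set beside *Pde3b* in each mouse. Their summed level was 1617, 2287 and 1470 CPM per kb in the Tarsl2+/+ mice 583, 584 and 595. It was 1622, 4279 and 1749 in the Tarsl2-/- mice 588, 589 and 591. The highest mouse of each genotype was the same for *Pde3b* and for these markers. In CPM per kb the Tarsl2+/+ mice stood in the same order for both. Tarsl2-/- mice 588 and 591 stood in opposite order, with *Pde3b* at 1.94 and 1.73 CPM per kb. All 7 adipocyte markers were tested, 6 had a positive log2 fold change and 0 passed the threshold by edgeR. The part of adipocyte RNA in the *Pde3b* values was not tested. *Pde3a* had between 83 and 113 counts in all 6 mice, and its log2 fold change was -0.05 (standard error 0.15, adjusted p = 0.89 by edgeR). It was 0.0098 without Tarsl2+/+ mouse 583.

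PDE7 enzymes are selective for cAMP and are not blocked by rolipram, and PDE7A is known from T cells and skeletal muscle. *Pde7a* had 347, 448 and 444 counts in Tarsl2+/+ mice 583, 584 and 595 and 417, 345 and 508 in the Tarsl2-/- mice 588, 589 and 591. The values overlapped, and the log2 fold change was 0.04 (standard error 0.10, adjusted p = 0.859 by edgeR). *Pde7b* had between 200 and 312 counts, and its log2 fold change was -0.01 (standard error 0.12, adjusted p = 0.969 by edgeR). The summed PDE7 level was 3.97 ± 0.331 CPM per kb in Tarsl2+/+ and 4.05 ± 0.319 in Tarsl2-/- mice (SD, n = 3 each).

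PDE8 enzymes bind cAMP with high affinity and resist the general inhibitor IBMX. *Pde8a* had 276, 334 and 351 counts in Tarsl2+/+ mice 583, 584 and 595 and 290, 299 and 413 in the Tarsl2-/- mice 588, 589 and 591, and the genotypes overlapped. Its log2 fold change was 0.07 (standard error 0.11, adjusted p = 0.78 by edgeR). *Pde8b* was scarce, with 18 to 28 counts in Tarsl2+/+ and 25 to 53 in Tarsl2-/- mice. The difference of 0.53 on the log2 scale, with a standard error of 0.32, did not pass the threshold (adjusted p = 0.385 by edgeR), and it was 0.22 without Tarsl2-/- mouse 591.

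Of the 10 genes, 1 passed the threshold, *Pde4d*, which was higher in Tarsl2-/- muscle. Over all 15075 tested genes, 2.27% passed in either direction and 0.896% were higher. In 2 of the 10, *Pde4d* and *Pde4c*, the genotypes did not overlap, as was the case for 24.6% of all tested genes. By DESeq2, which called 4.77% of the tested genes, the member past the threshold was again *Pde4d*. The log2 fold changes were positive in 7 of the 10, with a median of 0.20, against 7606 of the 15075 tested genes and a median of 0.0027. The summed level of the 10 genes was between 18.7 and 20.1 CPM per kb in Tarsl2+/+ and between 21.3 and 23.5 in Tarsl2-/- mice. *Pde4d* made up between 7.34% and 8.19% of this sum in Tarsl2+/+ and between 14.2% and 16.1% in Tarsl2-/- mice. Because the sum includes *Pde4d*, it is not a separate result. The summed levels of the PDE3, PDE4, PDE7 and PDE8 families, taken separately, each overlapped between the genotypes.

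**Figure D3:**
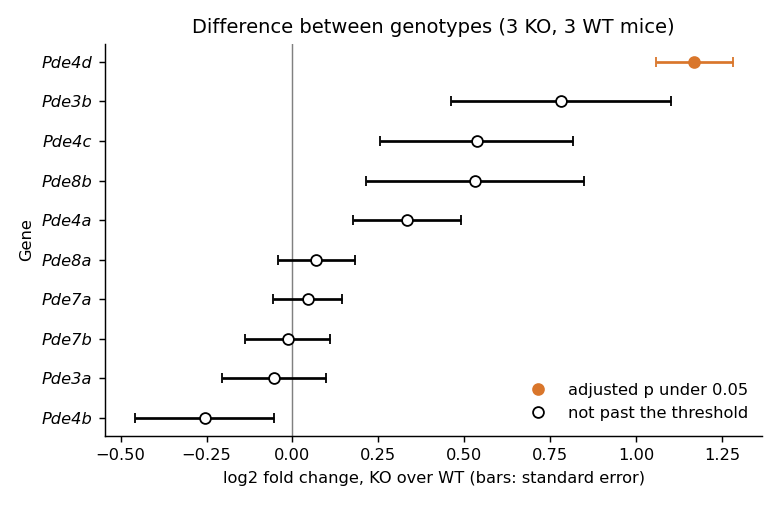
Log2 fold change (KO over WT) of each phosphodiesterase gene from edgeR, with bars for the standard error and 3 mice per genotype. *Pde4d*, at 1.17, is filled because its adjusted p is under 0.05, and the other 9 lie between -0.26 and 0.78.

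**Figure D4:**
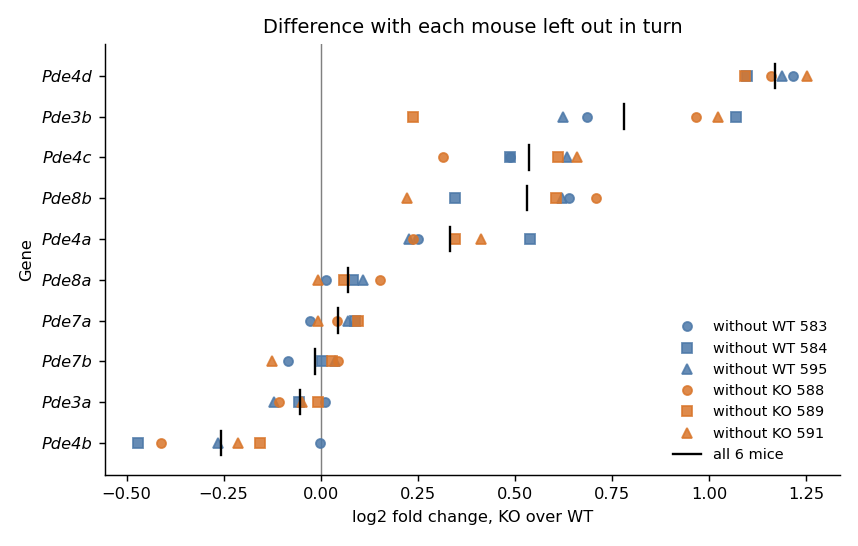
Log2 fold change (KO over WT) of each phosphodiesterase gene with each mouse left out in turn (points) and with all 6 mice (vertical bars). The *Pde4d* points lie between 1.09 and 1.25, those of *Pde3b* between 0.24 and 1.07 with the lowest obtained without KO mouse 589.

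The other genes of cAMP signalling were read from 10 lists with 91 genes, of which 82 were tested. Of these, 5 passed the threshold by edgeR, all higher in Tarsl2-/- muscle, where 2.27% of all tested genes passed in either direction and 0.896% were higher. The genotypes did not overlap in 15 of the 82, a smaller share than the 24.6% of all tested genes. The median log2 fold change over the 82 was 0.04. Because the lists were chosen with earlier results of these data known, these counts are a description and not evidence of an excess. Without Tarsl2+/+ mouse 595 or Tarsl2-/- mouse 589, 1 pathway gene was called, *Gnas*. Upstream of cAMP, 0 of the 12 genes for receptors coupled to the stimulatory G protein and their partners passed by edgeR. The most abundant of them per length, *Ramp1*, which encodes an accessory protein of calcitonin family receptors, had 36.7 ± 5.57 and 36.8 ± 1.81 CPM per kb. *Vipr2*, the receptor for vasoactive intestinal peptide, was chosen after its values were seen. It was scarce, with 6 to 18 counts in Tarsl2+/+ and 30 to 34 in Tarsl2-/- mice. Its mean levels were 0.142 and 0.395 CPM per kb, and its log2 fold change of 1.48 passed by DESeq2 and not by edgeR (adjusted p = 0.0737).

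Among the G protein genes, *Gnas*, which encodes the stimulatory alpha subunit, rose from 6.11 ± 0.171 to 9.07 ± 0.372 CPM per kb (SD, n = 3 each), or 0.57 on the log2 scale (standard error 0.08, adjusted p = 0.00571 by edgeR), and it passed in 6 of 6 fits that left out a mouse. *Gnas* is an imprinted locus with several overlapping transcripts and shares 988 exonic bases with the antisense gene *Nespas*, which had 12 counts over all libraries against 9307 for *Gnas*. The inhibitory alpha subunit gene *Gnai2*, the most abundant of that list, had 34.4 ± 1.35 and 33.6 ± 1.21 CPM per kb. Of the 10 adenylyl cyclase genes 8 were tested. *Adcy2*, the most abundant of them, had 3.00, 2.77 and 2.30 CPM per kb in the Tarsl2+/+ mice 583, 584 and 595 and 4.10, 4.47 and 4.25 in the Tarsl2-/- mice 588, 589 and 591. It rose by 0.67 on the log2 scale (standard error 0.12, adjusted p = 0.0175 by edgeR). The call was lost without Tarsl2+/+ mouse 595 or Tarsl2-/- mouse 589 or 591.

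Of the 13 genes of the other phosphodiesterase families, which act on cGMP or on both nucleotides, 6 were tested and 0 passed by edgeR. The most abundant was *Pde1a*, at 0.809 ± 0.187 and 0.834 ± 0.14 CPM per kb, below *Pde7b* in the mean of either genotype. The 7 untested genes, *Pde2a*, *Pde11a* and the 5 PDE6 subunits of photoreceptors, had at most 12 counts in any library.

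Downstream of cAMP, 0 of the 9 genes for protein kinase A subunits and its inhibitors passed, nor did any of the 5 other cAMP-binding effectors (edgeR). *Pkia*, an inhibitor of the kinase, was the most abundant of the former, with 99.2 ± 4.5 and 104.2 ± 8.13 CPM per kb, and *Popdc2* of the latter, with 14.9 ± 0.826 and 16.3 ± 0.787. Of the 15 anchoring and phosphodiesterase-binding proteins, *Pde4dip* passed. It encodes myomegalin, which was identified as a binding partner of PDE4D. *Pde4dip* had 26.3, 25.2 and 23.7 CPM per kb in the Tarsl2+/+ mice 583, 584 and 595 and 30.8, 37.9 and 34.4 in the Tarsl2-/- mice 588, 589 and 591. Its log2 fold change was 0.45 (standard error 0.10, adjusted p = 0.0441 by edgeR), and with each mouse left out in turn the call was kept in 2 of 6 fits. *Rack1*, the most abundant of this list, had 223 ± 13.0 and 224 ± 4.24 CPM per kb.

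The cAMP exporter genes (2) and the CREB factors and coactivators (8) had 0 members past the threshold by edgeR. The most abundant were *Abcc5*, with 1.65 ± 0.0482 and 1.501 ± 0.118 CPM per kb, and *Atf1*, with 18.1 ± 1.11 and 17.6 ± 1.35. Of 12 genes known to be induced through CREB, 2 passed. They were *Per1*, a clock gene, which differed by 0.69 on the log2 scale (standard error 0.12, adjusted p = 0.0175 by edgeR), and *Irs2*, an insulin receptor substrate, which differed by 1.00 (standard error 0.19, adjusted p = 0.0214). *Irs2* rose from 0.855 ± 0.208 to 1.71 ± 0.263 CPM per kb and *Per1* from 5.41 ± 0.835 to 8.74 ± 0.939. *Dusp1*, a phosphatase gene and the most abundant of this list, had 52.9 ± 6.4 and 43.3 ± 3.11 (adjusted p = 0.158 by edgeR). With each mouse left out in turn the call was kept in 4 of 6 fits for *Per1* and in 3 of 6 for *Irs2*.

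**Figure D5:**
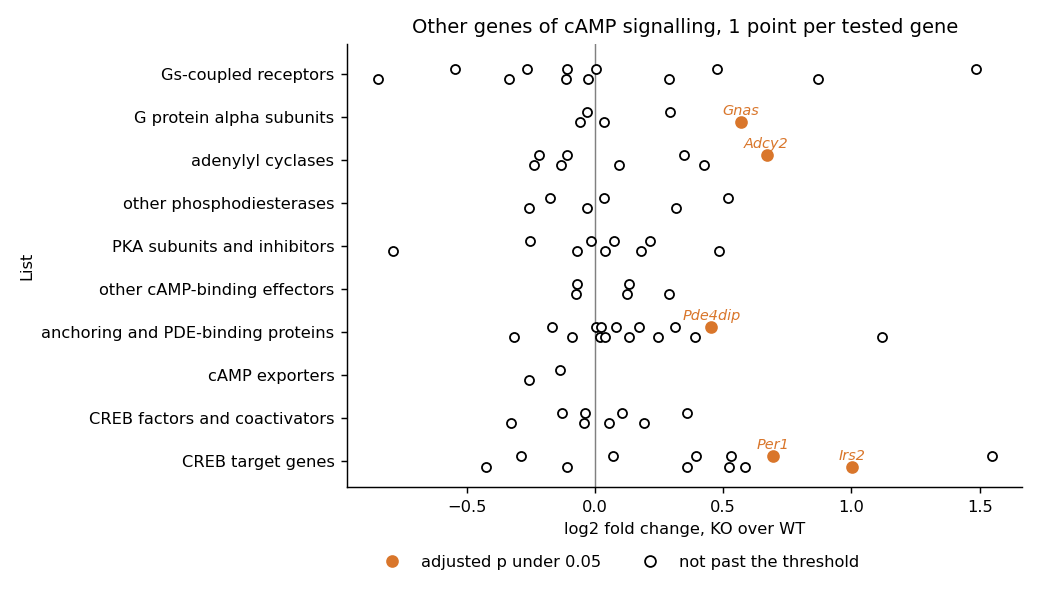
Log2 fold change (KO over WT) of the 82 tested genes of 10 lists of cAMP signalling, 1 point per gene with 1 row per list. The 5 filled and named points, *Gnas*, *Adcy2*, *Pde4dip*, *Per1* and *Irs2*, have an adjusted p under 0.05 and lie between 0.45 and 1.00.

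The profile of *Pde4d* over the 6 libraries was compared with that of 15065 other tested genes by the mean absolute difference of log2 CPM after each gene was centred on its mean. The most similar was *Lzts1* (chromosome 8, 69132669 to 69184225), with a mean difference of 0.11 on the log2 scale. *Lzts1* was near the limit of testing, at 0.564 ± 0.0779 CPM in Tarsl2+/+ and 1.28 ± 0.298 in Tarsl2-/- mice, and was not past the threshold (adjusted p = 0.0924 by edgeR). *Snai3*, a transcription factor gene (chromosome 8, 122454208 to 122460733), followed at the same rounded difference, with 2.78 ± 0.0939 and 5.67 ± 0.181 CPM (adjusted p = 0.0117 by edgeR). The next was an unannotated transcribed region on chromosome 9, 97150928 to 97157826, at 0.12 on the log2 scale, with 16.1 ± 1.78 and 31.2 ± 1.61 CPM. These were picked for profiles like that of *Pde4d*, so their genotype differences follow from the choice and are not a separate result.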

How the data were processed

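Total muscle RNA of 6 mice was sequenced as paired-end, stranded, poly(A)-selected libraries per the paper's methods, which name HISAT2 and mm10, whereas the submitters' processing notes name Bowtie 0.12.2 and mm8. The coordinates of the table are on GRCm38, since 95.2% of 52489 identifiers matched GENCODE vM21 exactly. The authors deposited raw counts of reads per gene. The counting tool, its annotation, strand setting and handling of shared reads are not given in the sources used here. Of 53084 rows, 448 are unannotated regions with at most 0.128% of counts, which were kept.

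Genes were filtered with edgeR's filterByExpr (minimum count 10, minimum total 15), which left 15075, and scaled by TMM. The quasi-likelihood functions glmQLFit and glmQLFTest of edgeR 4.0.16 (R 4.3.3) were then run with genotype as the factor, with Benjamini-Hochberg adjustment over all of them and a threshold of 0.05. Standard errors were obtained as the absolute log2 fold change over the root of the F statistic. Levels were TMM-scaled CPM per kb of the exon length in the table, which equals the GENCODE exon union for all 10 members. The likeness of profiles used log2 CPM with a prior count of 2. Libraries of 1 genotype were not identical (chi-square of at least 11.96 per gene). The code was tested on simulated data. Alternatives used DESeq2 1.42.0, limma 3.58.1 (voom), RLE and upper quartile scaling, other filters on low counts and each library left out. Promoter sequences are RefSeq's.

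Genes named were the 10 members, *Tarsl2*, pathway genes past the threshold, the most abundant gene of each pathway list and the 3 genes most like the member with the smallest p. *Vipr2*, *Ppargc1a* and *Rgs2*, past the threshold by DESeq2 and not in the edgeR fit above, the untested *Pde2a* and *Pde11a*, and the markers *Crx* and *Nppa* were named outside this rule, after their values were seen. The members and lists were chosen with earlier results of these data known. The libraries are labelled as separate mice.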

Additional observations from a re-analysis of the deposited data

How the results depend on the processing

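No paired analysis was run, because the labels give no litter and pair no Tarsl2+/+ mouse with a Tarsl2-/- mouse. *Pde4d* was past the threshold in every alternative run, with log2 fold changes between 1.09 and 1.25, and *Tarsl2* with values between -3.91 and -3.69. DESeq2 called 719 genes and 8 pathway genes, adding *Ppargc1a*, *Rgs2* and *Vipr2* to the 5. With no low-count filter 1437 genes, 2 members and 15 pathway genes were called, and *Pde3b*, whose genotypes overlap, was the added member (log2 fold change 0.78). With each library left out, 81 to 625 genes and 1 to 6 pathway genes were called against 342 and 5. The lowest count of genes, 81, was without Tarsl2+/+ mouse 583 and the highest, 625, without mouse 584, with 96 without mouse 595, and 187, 126 and 142 without Tarsl2-/- mice 588, 589 and 591. The pathway count was 1, *Gnas*, without Tarsl2+/+ mouse 595 or Tarsl2-/- mouse 589. The cause of these differences was not tested. Under upper quartile scaling *Pde4dip* was no longer called (adjusted p = 0.0510 by edgeR). Members near 0 changed sign when a library was left out: *Pde3a* ranged from -0.12 to 0.0098, *Pde7a* from -0.028 to 0.095, *Pde7b* from -0.13 to 0.044 and *Pde8a* from -0.0064 to 0.15 on the log2 scale. In the order by level, 5 members changed place with the longest transcript as length, and 0 to 2 with a library left out. Leaving out the unannotated regions, added after the data were seen, changed no member's or pathway gene's call. *Pde4c* and *Pde8b* rest on 18 to 53 counts per library, which limits what could be detected for them.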
